A study of Mus musculus with 2 samples.

Results

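The regions described here are the 50 kb windows that overlap a mouse zinc finger gene of the Zfp series. The genes were taken from the RefSeq annotation of GRCm38.p6 (mm10) as protein-coding genes on chromosomes 1 to 19 whose symbol is Zfp followed only by digits. There were 359 such genes after 1 gene was left out by the rule, and 306 of them overlapped at least 1 window. These 306 genes lay in 390 of the 43941 windows. Clusters were chains of 3 or more of these genes with gaps under 200 kb. By that rule 180 genes formed 28 clusters on 14 chromosomes, 46 formed 23 pairs and 133 were isolated. The rule uses gene names and positions only. Zinc finger genes with other symbols were not counted as neighbours, such as Zkscan5 and Zkscan14 beside Zfp655 or Zfp119a beside Zfp959. Genes called isolated can therefore lie next to other zinc finger genes. The largest gap inside a cluster was 187850 bp, between Zfp94 and Zfp428 on chromosome 7, and the smallest gap outside the limit was 216773 bp, between Zfp236 and Zfp516 on chromosome 18.

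Chromatin accessibility had been measured with ATAC-seq, an assay that marks open DNA by transposase insertion, in F121-6, a female hybrid embryonic stem cell line with 1 chromosome set from 129 and 1 from castaneus (CAS) mice. The cells were grown with serum and LIF on mouse embryonic fibroblasts inactivated by mitomycin C. All samples were untreated and formed 1 group of 2 replicates, and F121-6 is a single line. The labels do not say whether the replicates were separate cultures, so the spread between them may be technical.

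Many Zfp genes encode KRAB zinc finger proteins, in which an array of C2H2 fingers reads DNA and the KRAB domain recruits the corepressor TRIM28. TRIM28 brings the histone methyltransferase SETDB1, and together they silence retrotransposons and protect imprints in embryonic stem cells. The genes arose by repeated duplication, so many stand in tandem clusters of close relatives. Other Zfp genes are single and encode unrelated factors, such as the RNA-binding protein ZFP36. How reads from near-identical copies were treated is not given in the sources used here, so the values of close relatives are uncertain.

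Counts per window were small in both libraries, from 0 to 18 per allele and replicate. On 129 and CAS the column totals of replicate 1 came to 44026 and 46128, and those of replicate 2 to 59812 and 59995. Stem cell marker genes had counts on both alleles, as at Nanog (9 and 7, then 11 and 8) and Esrrb (19 and 20, then 22 and 28). Over 8 stem cell markers the sums were 58 and 58, then 72 and 71, and none was at 0. Over 9 fibroblast markers they were 13 and 14, then 19 and 12, and only Postn was at 0. The part of feeder cells in the values below was not tested.

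Promoter sequences are shown first for 4 Zfp genes, chosen as the clustered and isolated genes with the highest and the lowest count in the window of their start. They have 9 to 27 CpGs, within the 0 to 48 of all matched Zfp promoters. RefSeq promoters on GRCm38.p6 were matched for 300 of the 359 genes. Only the 101 whose 250 bases before the start lie in no annotated gene could be chosen. Capitals mark CpG dinucleotides, and each sequence runs 5′ to 3′ on the strand of its gene.
Zfp324: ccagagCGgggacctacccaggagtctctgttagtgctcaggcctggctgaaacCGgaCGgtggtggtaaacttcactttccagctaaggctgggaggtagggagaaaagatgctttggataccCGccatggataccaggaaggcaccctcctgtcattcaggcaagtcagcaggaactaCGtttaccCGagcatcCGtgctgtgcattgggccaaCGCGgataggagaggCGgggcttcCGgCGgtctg
Zfp113: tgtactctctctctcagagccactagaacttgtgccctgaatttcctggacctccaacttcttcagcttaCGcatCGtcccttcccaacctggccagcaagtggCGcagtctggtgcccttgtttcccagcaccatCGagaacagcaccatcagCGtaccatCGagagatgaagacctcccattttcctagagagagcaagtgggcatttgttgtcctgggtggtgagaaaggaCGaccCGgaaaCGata
Zfp763: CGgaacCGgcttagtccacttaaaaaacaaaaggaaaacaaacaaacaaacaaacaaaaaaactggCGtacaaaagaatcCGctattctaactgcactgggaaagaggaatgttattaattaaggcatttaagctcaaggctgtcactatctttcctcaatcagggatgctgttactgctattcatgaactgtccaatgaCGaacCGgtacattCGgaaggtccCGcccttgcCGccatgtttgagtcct
Zfp523: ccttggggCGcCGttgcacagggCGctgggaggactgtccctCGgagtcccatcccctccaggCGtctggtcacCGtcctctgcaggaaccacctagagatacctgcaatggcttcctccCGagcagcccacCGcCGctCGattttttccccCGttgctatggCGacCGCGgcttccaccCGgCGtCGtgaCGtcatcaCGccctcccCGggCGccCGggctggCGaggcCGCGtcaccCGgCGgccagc
The clustered Zfp324 (chr7:12965588-12965837, plus strand) has 12 CpGs, and its start window had 8 counts on each allele in replicate 1, with 10 on 129 and 7 on CAS in replicate 2. The isolated Zfp113 (chr5:138155745-138155994, minus strand) has 9, and its window had 6 on each allele, then 4 on 129 and 7 on CAS. The clustered Zfp763 (chr17:33033382-33033631, minus strand) also has 9, with 1 and 1, then 0 and 1. The isolated Zfp523 (chr17:28176946-28177195, plus strand) has 27, the most of the 4, and its window had no count in any column. Among these 4 genes CpG number and count did not follow each other.

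The table left out much of some clusters. Of the 173 grid windows that overlap a clustered Zfp gene, 44 (25.4%) had no row, against 27 of 252 (10.7%) for isolated genes and 2630 of 28037 (9.38%) for all protein-coding genes. Of clustered genes 27 of 180 (15.0%) had no window at all, as had 13 of 46 paired genes (28.3%) and 13 of 133 isolated ones (9.77%). Among all protein-coding genes 2088 of 20665 (10.1%) had none, so isolated genes lay near that share. Among the isolated genes without a window were Zfp57, a KRAB protein that maintains imprints, and Zfp207, a mitotic spindle protein. The same measure gave 24.1% of windows without a row for clustered olfactory receptor genes and 35.2% for clustered vomeronasal receptor genes.

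The gaps were uneven among clusters. In 20 of the 28 clusters every window from the first to the last gene had a row, and the other 8 lacked 57 windows, 27 of them in 1 cluster. That cluster, the 12 genes from Zfp992 to Zfp933 on chromosome 4 (146449030 to 147849126), kept 2 of 29 windows, and 10 of its genes had none. Without it, 19 of 146 windows of clustered genes (13.0%) had no row, so this cluster sets most of the distance between clustered and isolated genes. Of the 168 clustered genes outside it, 17 had no window. The 18-gene cluster from Zfp677 to Zfp946 on chromosome 17 (21383707 to 22456689) kept 15 of 23 windows. The 19-gene cluster from Zfp712 to Zfp273 on chromosome 13 (67038594 to 67827000) kept 12 of 17. The 4 genes from Zfp433 to Zfp938 on chromosome 10 kept 5 of 11, and the 8 genes from Zfp553 to Zfp629 on chromosome 7 kept 4 of 9. Every value below therefore describes the windows with a row.

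**Figure D1:**
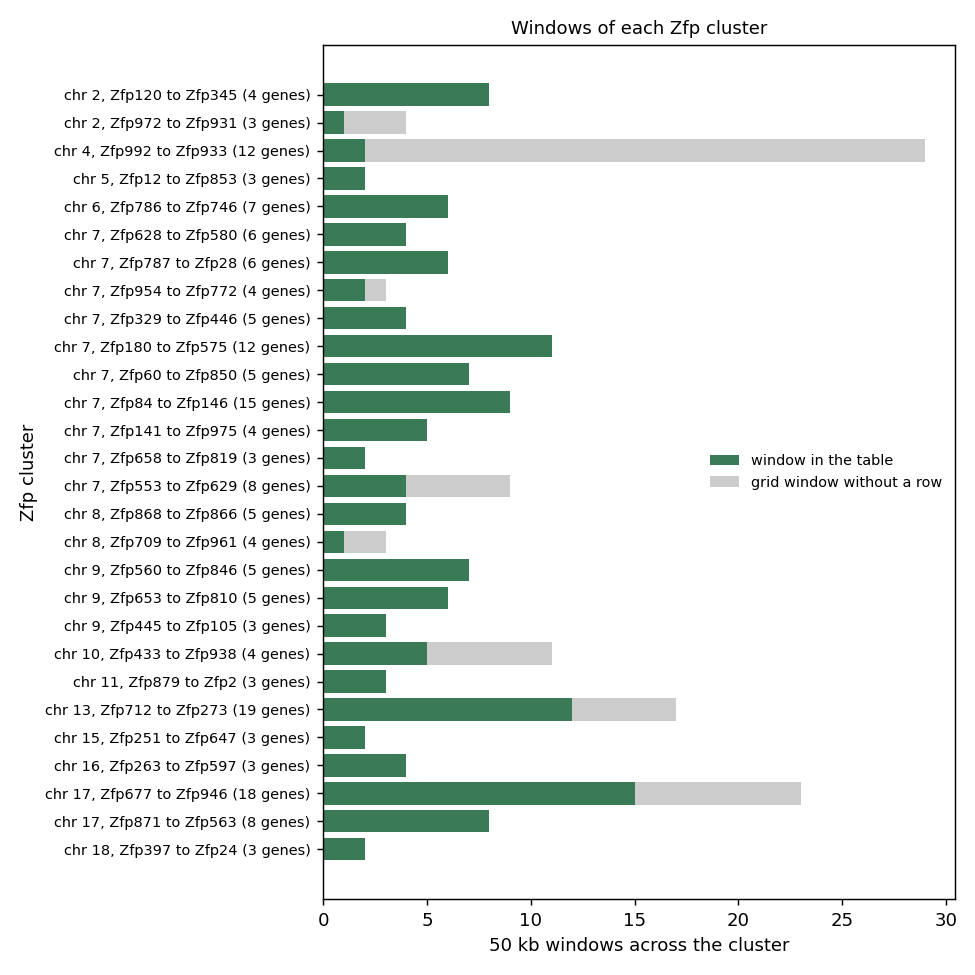
Windows of 50 kb from the first to the last gene of each of the 28 Zfp clusters (y axis; x axis, number of windows), split into windows in the table and grid windows without a row. The chromosome 4 cluster has 2 of 29 windows in the table, whereas 20 clusters have all of theirs.

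Over all chromosomes together, windows of clustered Zfp genes held more counts than those of isolated ones. In replicate 1 the 129 windows of clustered genes averaged 4.47 counts over both alleles (exact 95% Poisson interval 4.11 to 4.85), the 36 windows of pairs 4.0 (3.37 to 4.71) and the 225 windows of isolated genes 3.40 (3.16 to 3.65). In replicate 2 the means were 4.33 (3.97 to 4.70), 4.03 (3.40 to 4.74) and 3.37 (3.14 to 3.62). The ratio of clustered to isolated windows was 1.30 ± 0.0231 (SD, n = 2). The intervals of the clustered and isolated windows did not overlap in either replicate. They cover counting error only. No test over samples was run on this ratio, since the smallest p of an exact sign-flip test with 2 libraries is 0.5. Chromosome 7 holds 68 of the 180 clustered genes. Its Zfp windows of all classes had the highest mean of any chromosome, 9.74 counts over the 4 columns. The ratio was not computed without chromosome 7, so the difference is not shown for the other chromosomes.

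Both classes lay above the genome, and the distance depended on the library. All windows averaged 2.05 counts in replicate 1 and 2.73 in replicate 2, so clustered windows held 2.18 times the mean in replicate 1 and 1.59 times in replicate 2. For isolated genes the factors were 1.66 and 1.24, and for windows that overlap any coding gene 1.28 and 1.13. Clustered receptor genes gave the opposite order. Windows of clustered olfactory receptor genes averaged 1.23 and 2.20 counts, and those of clustered vomeronasal receptor genes 0.846 and 1.56, which were below the genome mean in both replicates.

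**Figure D2:**
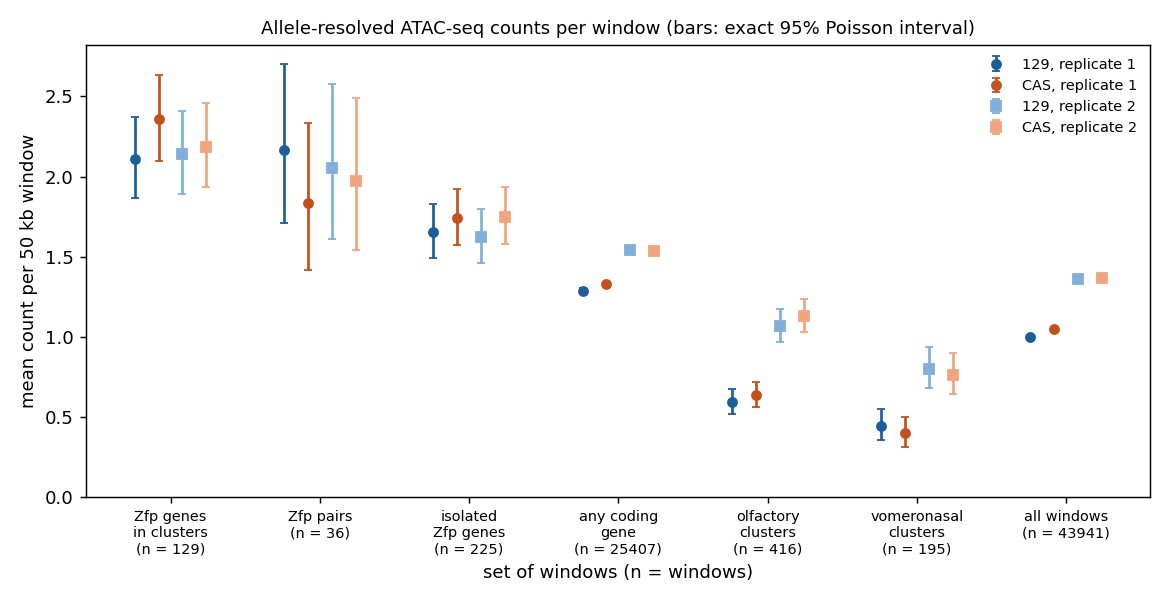
Mean count per 50 kb window (y axis) for each allele and replicate in 7 sets of windows (x axis), with exact 95% Poisson intervals. Zfp clusters have means from 2.11 to 2.36 per allele, isolated Zfp genes from 1.62 to 1.75, and both receptor families lie below the mean of all windows in every column.

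The number of genes in a window moved with this difference. Of clustered windows 97 of 129 (75.2%) overlapped 2 or more coding genes of any kind, against 90 of 225 isolated windows. In windows with 1 coding gene clustered and isolated genes had means of 2.56 and 2.74 in replicate 1, then 2.91 and 2.84. With 2 coding genes they were 4.04 and 3.57, then 3.81 and 3.78, and with 3 they were 5.79 and 5.10, then 5.62 and 4.83. With 4 or more they were 7.71 and 5.47, then 6.86 and 4.07, over 14 and 15 windows. At an equal number of genes the ratio of clustered to isolated windows was thus 0.978, 1.07, 1.15 and 1.55 for 1, 2, 3 and 4 or more genes, and the Poisson intervals of the 2 classes overlapped at each number, except with 4 or more genes in replicate 2. The part of gene number in the difference was not tested beyond these values. Windows without a Zfp gene averaged 2.18 and 2.81 counts with 1 coding gene, then 3.94 and 3.86 with 3, so Zfp windows with 3 coding genes lay above them in both replicates. With 4 or more coding genes they averaged 4.98 and 4.37, and isolated Zfp windows lay above in replicate 1 but below in replicate 2.

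**Figure D3:**
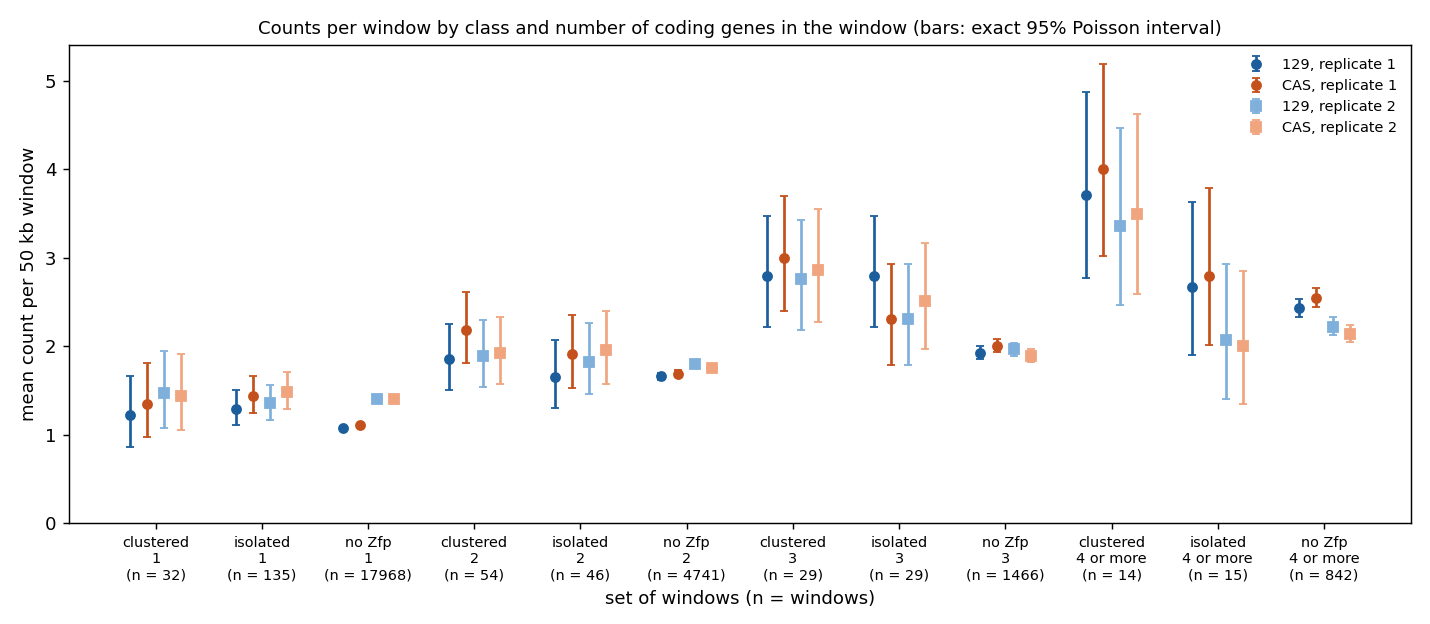
Mean count per window (y axis) for each allele and replicate, with exact 95% Poisson intervals, for clustered Zfp, isolated Zfp and other windows grouped by the number of coding genes they overlap (x axis). The means rise with gene number in all 3 classes between 1 and 3 genes, and clustered and isolated windows with 1 gene lie together.

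Windows with a Zfp start held more counts than other windows of Zfp genes, and the same held for starts of any coding gene. The 10189 windows with a coding gene start averaged 3.62 and 3.81 counts in replicates 1 and 2. All windows that overlap a coding gene averaged 2.62 and 3.08. The 100 windows that hold a listed start of a clustered Zfp gene averaged 4.92 and 4.77 counts (replicates 1 and 2), and the 20 that hold only other parts of such genes averaged 2.20 and 2.25. For isolated genes the 89 start windows averaged 4.33 and 4.28, and the 60 windows without a start 2.65 and 2.72. Start windows were thus higher in both classes and both replicates, with Poisson intervals that did not overlap. Left out were 9 clustered and 76 isolated windows, of which all but 2 isolated ones hold a gene without a matched promoter, as do all Zfp windows of chromosome 18, and those 2 hold a further listed start. Among start windows the ratio of clustered to isolated genes was 1.13, and the Poisson intervals of the 2 classes overlapped in both replicates. The 16 windows that lie between the genes of a cluster averaged 4.50 and 4.44, with intervals that overlapped those of clustered start windows. Other coding genes in the 16 windows were not separated out.

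Windows without any count were rare in clusters. Of 129 clustered windows 3 were at 0 in all 4 columns (2.33%, Clopper-Pearson 95% interval 0.482 to 6.65%), against 30 of 225 isolated windows (13.3%, 9.18 to 18.5%) and 21.7% of all windows. With 1 replicate alone the share was 4.65 or 8.53% for clustered and 18.2 or 19.1% for isolated windows. The empty clustered windows held Zfp712, Zfp873, and Zfp454 with Zfp2. Those of isolated genes lay mostly along long genes. Zfp536, a neural zinc finger gene of 456017 bp on chromosome 7, had 5 of its 8 windows at 0. Zfp407 on chromosome 18, 381839 bp long, had 3 of 8 at 0 but 38 counts over the others. In start windows the share at 0 was 1.00% for clustered and 7.87% for isolated genes.

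Promoter sequence differed between the classes in composition. Over the 250 bases before the start, the median CpG number was 8.5 for 160 clustered genes, 9.0 for 36 paired genes, 13.0 for 104 isolated genes and 10.0 for 16457 coding genes. The GC box letters GGGCGG, on either strand, were found in 34.4% of clustered, 51.9% of isolated and 43.6% of all promoters. The letters CCAAT were found in 50.0%, 41.3% and 36.3%, the ETS letters CCGGAAG in 17.5%, 19.2% and 9.39%, and TATAAA in 3.75%, 9.62% and 12.5%. No overlap between these motifs was removed, and a match is not a binding site. Across 246 Zfp genes with a promoter and a start window, CpG number and the count of the window had a Spearman correlation of 0.0493 (clustered 0.155, isolated 0.0024). Clustered genes with 10 or more CpGs had a median start-window count of 10.0, against 8.0 with fewer. For isolated genes these medians were 8.5 and 5.0, and the quartile ranges overlapped in both classes. Genes that share a window share its count. The clustered genes thus had fewer CpGs before their starts, over all genes with a matched promoter. Start windows of both classes had a median of 8.0 counts over the 4 columns, and the Poisson intervals of their means overlapped in both replicates.

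The clusters with the most counts per window lay at the start of chromosome 7, which holds 10 of the 28 clusters and 68 of the 180 clustered genes. The 6 genes from Zfp628 to Zfp580 (4915181 to 5053723) averaged 10.75 and 10.25 counts per window in replicates 1 and 2. The 6 genes from Zfp787 to Zfp28 (6131489 to 6396637) averaged 10.3 and 9.67, and the 5 genes from Zfp329 to Zfp446 (12803778 to 12985717) 10.0 and 10.25. Windows of a Zfp gene overlapped 3 to 5 coding genes in the first of these clusters, 2 or 3 in the second and 3 in the third. No other cluster exceeded 6.5 in replicate 1 or 8.0 in replicate 2. Among clusters with more than 1 window the lowest means were 1.5 in replicate 1, for the chromosome 4 cluster, and 1.29 in replicate 2, for the 5 genes from Zfp60 to Zfp850 on chromosome 7. The 3 genes from Zfp972 to Zfp931 on chromosome 2 kept 1 window, which held a single count.

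Among single genes the highest count per window was that of Zfp655, an isolated gene on chromosome 5, at 11 and 8 in replicate 1 (129, then CAS) and 12 with 11 in replicate 2. Zkscan5 and Zkscan14 share its window. The pair Zfp13 and Zfp213 on chromosome 17 shares a window with 10 and 9, then 9 and 8. Zfp324 and Zfp446 share theirs on chromosome 7, with 8 and 8, then 10 and 7. Zfp146 had 7 and 8, then 6 and 6, Zfp444 had 7 and 7, then 6 and 7, and the paired Zfp605 had 7 and 5 in each replicate. Zfp524, Zfp784 and Zfp865 share a single window of 7 and 6, then 6 and 5, with part of Zfp580. In all of these windows both alleles held counts in both replicates.

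Over all Zfp windows the alleles were close to even. The 129 share of counts in replicate 1 was 48.7% of 1484 counts (46.1 to 51.2%, Clopper-Pearson 95% interval). In replicate 2 it was 48.9% of 1462 counts (46.3 to 51.5%). For clustered genes it was 47.2% (43.1 to 51.4%) and 49.5% (45.2 to 53.7%), and for isolated genes 48.7% (45.1 to 52.3%) and 48.1% (44.5 to 51.7%). Pairs had 54.2% (45.7 to 62.5%) and 51.0% (42.6 to 59.4%). Chromosomes differ in their share as a whole, so each class was set beside the share of the other windows of its chromosomes, weighted by its own counts. That share was 47.5% and 48.5% for clustered genes and 48.1% and 49.0% for isolated ones. Clustered genes differed from it by -0.28 and 0.95 percentage points, and isolated genes by 0.57 and -0.87, so that neither class departed in the same direction in both replicates. Pairs lay above their chromosomes in both, by 5.77 and 0.96 points, and their intervals included the chromosome share.

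No Zfp window passed the test of the alleles. The main model held the allele only and did not pair the alleles of a library. With edgeR's quasi-likelihood test over 34417 windows with a count, 0 of 354 Zfp windows had an adjusted p under 0.05, against 0% of all windows. At an unadjusted p under 0.05 there were 3, against 2.64% of all windows (910), and the DESeq2 Wald test also called 0, with 0 Zfp windows at an unadjusted p under 0.05. With limma on centred square roots 0 Zfp windows were called and 19 had an unadjusted p under 0.05, 5.37% against 8.09% of all windows. The 3 windows held counts on 1 allele only and few of them. A window of Zfp277 (chromosome 12, 40350001 to 40400000) had 2 counts on 129 in replicate 1 and 1 in replicate 2, and a window of Zfp951 (chromosome 5, 104800001 to 104850000) had 1 and 2. A window of Zfp827 (chromosome 8, 79100001 to 79150000) had 1 and 2 on CAS. A count this low allows up to 3 on the other allele, so no fold is given.

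Differences between the alleles were mostly 1 count or less. Of the 354 Zfp windows with a count, 265 (74.9%) differed by at most 1 in each replicate, against 73.2% of all windows. The 129 allele was higher in both replicates in 39 Zfp windows (11%, background 11.4%) and CAS in 47 (13.3%, background 12.6%). By class these were 7 and 16 of 126 clustered windows (5.56% and 12.7%), 6 and 3 of 33 paired windows, and 26 and 28 of 195 isolated windows (13.3% and 14.4%). Counts in both replicates on 129 with 0 on CAS were found in 7 Zfp windows (1.98%, background 3.48%), and on CAS with 0 on 129 in 5 (1.41%, background 3.76%). None of these 12 windows had more than 2 counts in a column. All 4 shares by direction lay within 1 percentage point of their background or below it.

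A single Zfp window differed by 3 or more counts in the same direction in both replicates (0.282% of 354, background 0.645%). It lies at the end of the cluster from Zfp628 to Zfp580 (chromosome 7, 5050001 to 5100000), with 5 counts on 129 and 10 on CAS in replicate 1, then 5 and 8. Both CAS values were above both 129 values. The log2 difference was -0.83 (edgeR quasi-likelihood test, unadjusted p = 0.129, adjusted p = 0.999), with a counting error of 0.57 from 10 against 18 summed counts. The coding genes Ccdc106, Epn1 and U2af2 share the window with Zfp580, so the counts cannot be given to one of them, and after scaling the columns to 1 total no Zfp window met the rule. The neighbouring window, with 4 Zfp genes, had 7 and 6, then 6 and 5, in the other direction.

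At a difference of 2 or more counts 11 Zfp windows qualified (3.11% of 354, background 3.52%). Zfp85 and Zfp493, neighbours in the chromosome 13 cluster, share a window with 2 and 4, then 1 and 5 (log2 difference -1.51, counting error 0.96, and again 0.999 as edgeR's adjusted p). A window of Zfp236 on chromosome 18 had 1 and 3, then 0 and 3, and the whole gene had 4 and 10, then 4 and 8. Windows of Zfp386 on chromosome 12 (3 and 6, then 6 and 8) and Zfp503 on chromosome 14 (3 and 5, then 1 and 3) also had CAS ahead. Outside Zfp windows the 129 share was 50.1% and 52.0% on chromosome 12, and 45.2% and 45.9% on chromosome 14. On chromosome 18 it was 44.7% and 44.8%, the direction of the Zfp236 window, and a link was not tested. Zfp35 and Zfp24 on the same chromosome share 1 and 4, then 2 and 4. Zfp141 on chromosome 7 had 2 and 4, then 2 and 5, in 1 window and 1 count on CAS in each replicate in the next. On the 129 side stood a window of Zfp217, a transcriptional regulator amplified in breast cancer (4 and 2 in each replicate), and windows of Zfp541 (5 and 3, then 4 and 2), Zfp715 (4 and 2, then 5 and 3) and Zfp605.

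**Figure D4:**
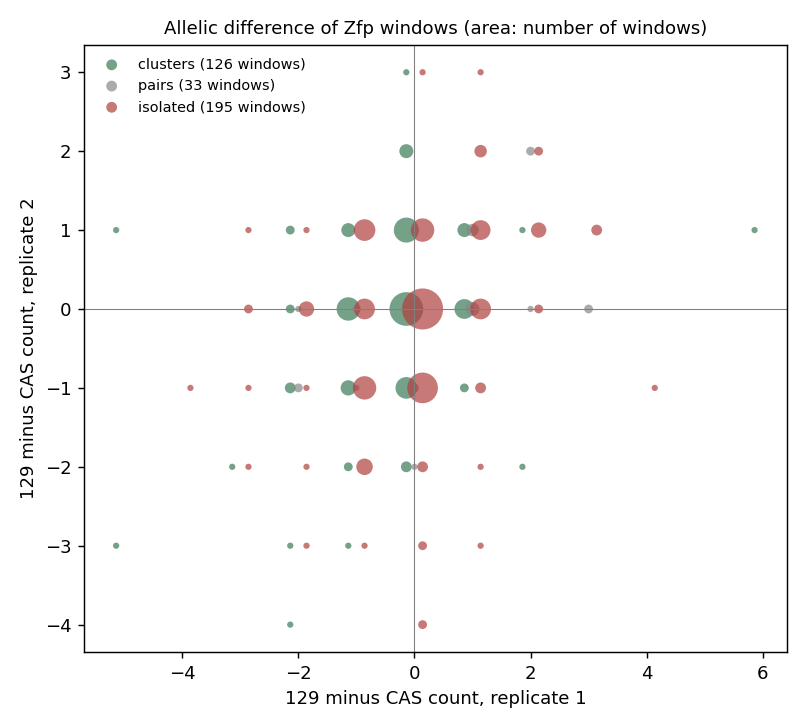
Count on 129 minus count on CAS in replicate 1 (x axis) and replicate 2 (y axis) for the 354 Zfp windows with a count, with circle area for the number of windows and colour for the class (classes are set slightly apart along x). Most windows lie within 1 count of 0 on both axes, and 1 clustered window lies at -5 and -3.

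Summed over whole clusters, the alleles also did not separate. With each cluster as 1 locus among 2374 loci, the others being runs of at most 20 windows with a row, edgeR's quasi-likelihood test called 0 of 28 clusters (0% of all loci), with 0 at an unadjusted p under 0.05 against 3.03% of all loci (72), and the DESeq2 Wald test called 0. The lowest adjusted p of any cluster was 0.999 in edgeR's main model, which held the allele only. With the alleles of a library paired in edgeR's model, 10 loci were called, none of them a Zfp cluster. Then 162 loci (6.82%) and 0 clusters had an unadjusted p under 0.05. Of the 19 clusters with 20 or more counts, 4 had more counts on 129 in both replicates (background 24.9% of loci with 20 or more counts) and 6 more on CAS in both (background 34.3%). These clusters had a median of 50.0 counts over the 4 columns, against 85.0 for all such loci, and the shares were 21.1% and 31.6%. Relative to the rest of their chromosome, 7 had a higher 129 share in both replicates, 5 a lower one and 7 changed side. The same count was not made over all loci, so these numbers have no background and are not read as a trait of Zfp clusters.

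The 5 clusters with the most genes had counts on both alleles in both replicates. The chromosome 13 cluster had 18 counts on 129 and 24 on CAS in replicate 1, then 23 and 26, a log2 difference of -0.25 (counting error 0.30). It includes Zfp708, a KRAB gene with 3 and 4, then 5 and 5. The chromosome 17 cluster from Zfp677 had 25 and 26, then 33 and 30 (log2 difference 0.09, counting error 0.27). In it Zfp53 (8 and 6, then 7 and 6) and Zfp52 (7 and 6, then 7 and 5), which share a window, had the most counts. The 15 genes from Zfp84 to Zfp146 on chromosome 7 had 24 and 29, then 24 and 23, and the 12 genes from Zfp180 to Zfp575 had 25 and 34, then 29 and 27. In the chromosome 4 cluster 1 and 2 counts, then 4 and 2, came from 2 windows of Zfp993 and Zfp981. Among these 5 clusters only that of chromosome 13 had the same allele, CAS, ahead in both replicates.

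Among clusters with 20 or more counts, 1 on chromosome 7 departed most from its chromosome on the 129 side in both replicates. On the CAS side the 7 genes from Zfp786 to Zfp746 on chromosome 6 departed most in replicate 1 (by -7.52 percentage points, then -1.60), and a second cluster on chromosome 7 departed by -7.06 and -6.71. On the 129 side the 8 genes from Zfp553 to Zfp629 (127233061 to 127615785) had 15 and 11, then 9 and 7, a 129 share of 57.7% and 56.2% against 45.9% and 46.7% on the rest of the chromosome. The window of Zfp553, which it shares with Zfp771 and 3 other coding genes, gave 10 and 4 of these in replicate 1 but 5 and 4 in replicate 2, and 5 of the 9 windows of the cluster had no row. On the CAS side the 4 genes from Zfp141 to Zfp975 on chromosome 7 (42473386 to 42692810) had 7 and 11, then 8 and 12, a share of 38.9% in replicate 1 and 8 of 20 counts in replicate 2. The Clopper-Pearson intervals of both chromosome 7 clusters included the share of the chromosome, from 36.9 to 76.6% for the first and from 17.3 to 64.3% for the second in replicate 1. On chromosome 10, whose other windows favoured 129 at 59.8% and 55.6%, the cluster from Zfp433 to Zfp938 had 4 and 5, then 5 and 5. On chromosome 8, which favoured CAS (44.4% and 41.7% outside the cluster), the 5 genes from Zfp868 to Zfp866 had 7 and 8, then 8 and 8. At 19 and 31 counts neither difference from the chromosome was detectable.

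**Figure D5:**
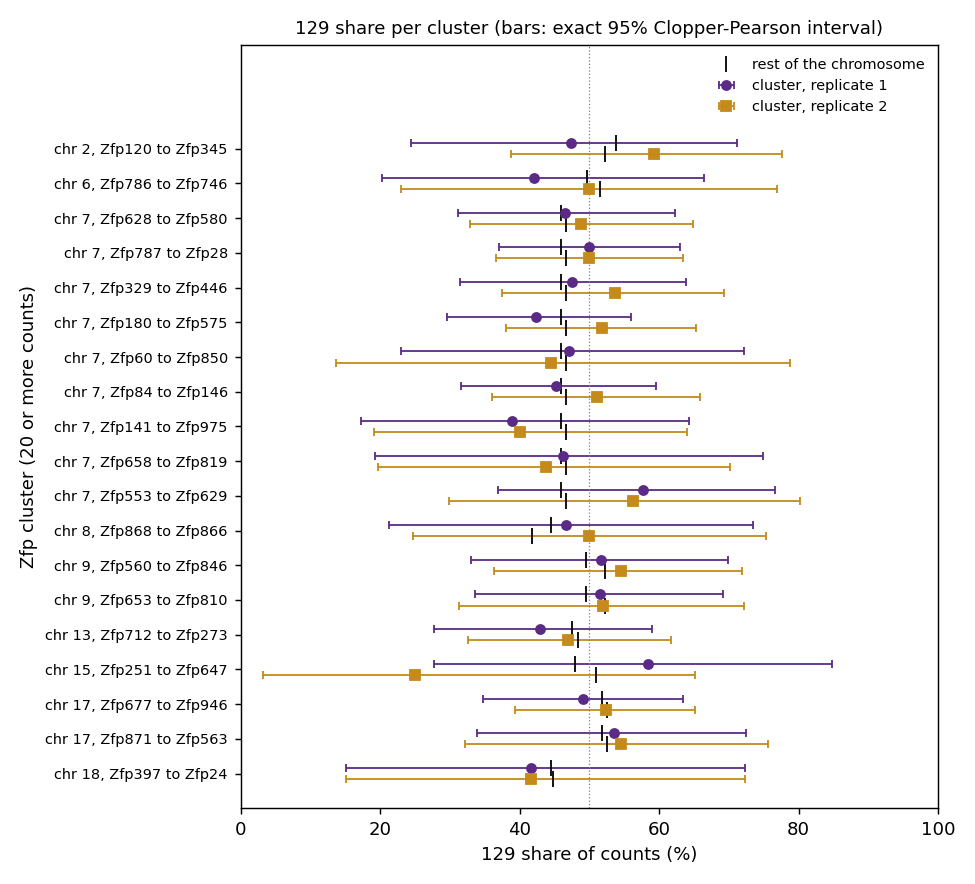
129 share of counts (x axis, percent) with exact 95% Clopper-Pearson intervals for the 19 Zfp clusters with 20 or more counts (y axis) in each replicate, with the share of the rest of the chromosome as black ticks. The intervals of all 19 clusters include the share of their chromosome in both replicates.

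The Zfp genes of known role named here that had a window had counts on both alleles when their windows were summed. Single windows of Zfp932, Zfp521 and Zfp423 had no count or counts on 1 allele only. Among repressors of retrotransposons and imprints, Zfp809, which silences retroviruses in stem cells, had 3 counts on each allele in replicate 1 and 4 on each in replicate 2. Zfp445, which acts with Zfp57 on imprints, had 4 and 2 in each replicate. Zfp568, a repressor of a placental Igf2 promoter, had 3 and 5, then 4 and 3. Zfp819 had 4 and 5, then 3 and 6, and Zfp932 had 1 and 1, then 2 and 1. Except for Zfp932, these genes share their windows with other coding genes, so the counts cannot be given to one gene. Of the 5 genes Zfp445 had 129 ahead and Zfp819 had CAS ahead in both replicates, by 1 to 3 counts. Among all coding genes with a window 129 was ahead in both replicates in 13.3% and CAS in 14.2%. With 5 genes no difference from these shares can be read.

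Among isolated genes of known role, Zfp281, a stem cell transcription factor, had 2 and 3 counts in each replicate, and Zfp143, a promoter-binding factor, had 1 and 2, then 2 and 1. Zfp335 had 9 and 8, then 4 and 7, Zfp462 had 2 and 3, then 4 and 3, and Zfp451, a SUMO ligase, had 2 and 3, then 4 and 4. The windows of Zfp143, Zfp335 and Zfp451 also hold other coding genes. Zfp36, which promotes decay of AU-rich mRNAs, had 4 and 5 in each replicate. The paralogues Zfp423 and Zfp521, which act in adipocyte, neural and blood lineages, each spanned 7 windows. Zfp423 had 6 and 9, then 7 and 9, on chromosome 8, and Zfp521 had 5 and 4 in each replicate on chromosome 18. Per window these long genes held 4.43 and 2.57 counts over the 4 columns, against 18 for the short Zfp36, whose window holds 5 other coding genes.

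Genes listed for the KRAB zinc finger repression pathway, which include general heterochromatin and DNA methylation factors, had counts on both alleles as well. This held in both replicates except for Morc2a, Mphosph8 and Dnmt3a in replicate 2. Over the 25 genes of this list the sums were 92 and 106, then 111 and 106, and none was at 0. Their median count per window over 4 columns was 7.5, against 6.0 for all 18577 coding genes with a window. For clustered and isolated Zfp genes it was 8.5 and 6.0. Of the 25, 4 had more counts on 129 in both replicates, against 13.3% of coding genes with a window, and 5 more on CAS, against 14.2%. Trim28 had 8 and 11, then 9 and 10, in a single window 38435 bp beyond the Zfp329 to Zfp446 cluster on chromosome 7. Setdb1 had 2 and 3, then 4 and 3. Hells, a chromatin remodeller needed for DNA methylation, had 5 and 3, then 7 and 3, and Chd4, a remodeller of the NuRD complex, had 3 and 6, then 3 and 5.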

How the data were processed

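ATAC-seq was deposited for 2 replicates of the hybrid embryonic stem cell line F121-6 as 1 table of 50 kb windows in mm10. The authors deposited counts, as whole numbers from 0 to 18 with no visible normalization, in 1 column per allele and replicate (4 columns). Bowtie2, MACS2, bedtools, SAMtools and mm10 are named, without roles, in the submitters' processing notes. What is counted, how it was assigned to an allele and why grid windows lack a row: not given in the sources used here. Depth is the column total, and intervals and limits (3 counts for a count of 0) cover counting error only. PCR reads are not independent molecules.

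Genes came from RefSeq on GRCm38.p6. A window was assigned to a gene if they share a base, and the start is the most upstream listed promoter of 300 bases (250 before to 50 after). The alleles were tested with edgeR 4.0.16 (quasi-likelihood, TMM, Benjamini-Hochberg, threshold 0.05) over all windows with a count and over loci, after tests on simulated data. Alternatives used DESeq2 1.42.0 and limma 3.58.1 in R 4.3.3. The counting error of a log2 difference is its standard error from the summed counts of each allele. Classes were compared by exact Poisson and Clopper-Pearson intervals in scipy 1.17.1. Both alleles were read from the same library, and by that the numbers pair the columns (r = 0.229 between deviations of same-numbered columns over 34417 windows). The main model held the allele only and did not use this pairing, and the replicate block was run as an alternative. Named genes were every window past the test or at a difference of 3 counts, the highest 10 per window, the largest and most deviating clusters, and genes of known role. The windows at a difference of 2 counts, the long genes with empty windows, Zfp53, Zfp52, Zfp708 and the genes within a cluster were named after their values were seen. The members and lists were chosen with earlier results of these data known. Promoters of chromosome 18 were not printed. Chromosome X was not analysed here, and 1 gene is not reported here.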

Additional observations from a re-analysis of the deposited data

Results flagged for a closer look

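Pairs of Zfp genes stood on the other side of an even share from the other classes. Their 129 share was 54.2% and 51.0% in replicates 1 and 2, whereas clustered genes had 47.2% and 49.5% and isolated genes 48.7% and 48.1%. The mean share of pairs was 4.26 percentage points above that of clustered genes, and isolated genes were at -4.21 relative to pairs. The difference was not tested, and the pairs held 144 and 145 counts, with intervals that included 50% in both replicates.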

How the results depend on the processing

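The count of Zfp windows and of Zfp clusters past the allelic test stayed at 0 under the replicate block, DESeq2 size factors, 1 library size per replicate, the DESeq2 Wald test, limma on centred square roots, filterByExpr and a threshold of 0.1. Over all windows limma called 78 and the single library size 1, against 0 in edgeR. With the replicate block, which pairs the alleles of a library, edgeR called 10 of 2374 loci, none of them a Zfp cluster. The filter left 3 Zfp windows and 13 clusters, so fewer were tested. Of 125 log2 differences of clusters under these settings 124 kept their direction, as did 45 of 56 with a replicate left out and 12 of 12 for the windows of Zfp580 and Zfp236. The ratio of clustered to isolated windows (1.30) was 1.27 with pairs as isolated, 1.13 over start windows and 1.27 without chromosomes 8 and 10. Without chromosome 7, which holds the most clusters, the ratio was not computed. At an equal number of coding genes, an alternative chosen after seeing the data, the ratio was 0.978, 1.07, 1.15 and 1.55 for 1, 2, 3 and 4 or more genes. The other cluster gaps and the whole cluster span gave 1.30 to 1.32. In single replicates the means of clustered and isolated windows were 4.47 and 3.40 in replicate 1, then 4.33 and 3.37 in replicate 2. The 129 share of isolated genes (48.4%) moved to 49.1% with gaps under 500 kb and with pairs as isolated, to 49.3% over start windows and to 49.0% without chromosomes 8 and 10. That of clustered genes (48.3%) stayed within its spread, at 49.5% without chromosome 7, also chosen after seeing the data. The spread is the SD between the 2 replicates, 1.58 points for clustered and 0.425 for isolated genes, so the 2 classes were held to unlike limits. The Clopper-Pearson intervals of both classes are wider than these shifts. Isolated windows without a count (13.3%) fell to 7.87% over start windows. With a replicate left out the share without a count ran from 4.65 to 8.53% for clustered and from 18.2 to 19.1% for isolated windows. Zfp windows with a difference of 3 counts numbered 1, against 11 at 2 counts (3.11%, 3.52% of all windows) and 0 after scaling. Clusters above their chromosome numbered 7 of 19 in both replicates and 10 to 11 in single replicates, again without a count over all loci. The cause of these shifts was not tested. Counts this small limit every single-window value.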
